A study of Mus musculus with 22 samples.

Results

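The genes described here are the nuclear-encoded subunits of the respiratory chain and ATP synthase, measured by RNA-seq in mouse embryonic stem cells (ESCs). They were chosen by symbol alone: every entry of the count table whose symbol begins with Nduf and a subunit letter, is Sdha to Sdhd, begins with Uqcr, is Cyc1, begins with Cox4 to Cox8, or begins with Atp5. 96 entries matched, and 8 were left out, namely Ndufa4l2 and 7 entries with a -ps suffix, which marks pseudogenes. 6 of these 7 are annotated as processed pseudogenes and Ndufb1-ps as a non-coding RNA from a bidirectional promoter. This left 88 of 44749 entries: 39 for complex I, 4 for complex II, 9 for complex III, 19 for complex IV and 17 for complex V. Ndufa4 is counted with complex I by its symbol, although it is now known as a subunit of complex IV. Ndufa11b, Ndufb4c, Ndufs6b and Cox6c2 are annotated as processed pseudogenes and stayed in because their symbols carry no suffix.

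The respiratory chain passes electrons from NADH (complex I) and succinate (complex II) through ubiquinone, complex III and cytochrome c to oxygen at complex IV, and pumps protons across the inner mitochondrial membrane as it does so. ATP synthase, complex V, lets these protons flow back and makes ATP. Most subunits are encoded in the nucleus and imported, and a few central ones are encoded by mitochondrial DNA. In ESCs, which draw much of their ATP from glycolysis, the chain also serves to regenerate the electron acceptors needed for nucleotide and amino acid synthesis.

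The study compared male ESCs derived from the inner cell mass, grown in serum and LIF without feeder cells, in which the m6A pathway was disturbed. Ythdc1 is a nuclear protein that binds m6A, a methyl mark on RNA, and Mettl3 is the enzyme that writes it. The Ythdc1 set held 4 libraries of Ythdc1 conditional knockout (cKO) cells under DMSO and 4 under 4OHT, a ligand used to switch on inducible Cre recombinases. The titles assign these 8 to 2 ESC lines, which the columns of the table do not carry. The Mettl3 set held 2 wild type (WT) and 2 knockout (KO) libraries. The Dux set held Ythdc1 cKO cells that also carried Dux-Het or Dux-KO, 2 libraries under DMSO and 2 under 4OHT for each, and a DMSO and a 4OHT library with no Dux label. Dux is the transcription factor that switches on genes of the two-cell embryo and stands in the table as Duxf3. The labels do not tie the libraries of a group to separate cultures; the p-values speak only of the spread among these libraries, which may be technical.

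Total counts ran from 24.96 to 54.14 M per library. Levels are given as CPM, the counts of a gene per 1 M counts of its library, scaled by the TMM method of edgeR over all 22 libraries. Replicate libraries differed by more than counting error in all 18 pairs compared, with a chi-square per degree of freedom of 3.741 to 99.07. Within the Ythdc1 DMSO group, library 1 stood apart, at 30.97 to 37.05 against the other 3 libraries, which lay at 8.441 to 10.82 among themselves. The Ythdc1 count was 70.8 to 80.2 CPM under DMSO and 49.0 to 62.8 CPM under 4OHT in the Ythdc1 set (log2 fold change -0.41, SE 0.08, adjusted p = 0.00064). In the Dux set it did not separate the treatments, at 58.9 and 86.5 CPM under DMSO against 52.2 and 65.9 CPM under 4OHT in Dux-Het. In Dux-KO these values were 49.7 and 71.3 CPM against 53.9 and 56.6 CPM. In the Mettl3 set Ythdc1 was higher in KO, at 81.7 and 83.6 CPM in WT and 135.6 and 154.0 CPM in KO (log2 fold change 0.82, SE 0.09, adjusted p = 0.00024). Mettl3 lay at 29.0 and 29.9 CPM in the libraries labelled WT and at 14.5 and 28.4 CPM in those labelled KO, so by this gene 1 library labelled KO was close to WT. These counts cover the whole gene, no source used here names the deleted exons, and the counts therefore check the labels only in part. Duxf3 stayed at 0.0199 to 0.0902 CPM in the 4 Dux-KO libraries and rose from 0.144 and 0.0695 CPM to 1.54 and 0.927 CPM in Dux-Het. None of 8 ESC marker genes, which include Pou5f1, Sox2 and Nanog, was at 0 in any group, and their summed level was 1520 to 1667 CPM under DMSO and 1081 to 1303 CPM under 4OHT in the Ythdc1 set.

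Promoters of these genes are known for sites of NRF1 and of GABP, a factor of the ETS family, which both regulate nuclear genes for mitochondrial proteins. RefSeq windows of 300 bases on GRCm38.p6, from 250 before to 50 after a gene's start, were held for 68 of the 88 genes, 66 of them by symbol and 2 by synonym. The following 100 bases before the start show how such matches sit, with NRF1 matches (GCGCA, any base, GCGC) and GABP matches (CCGGAAG or its reverse complement) in capitals, each written 5′ to 3′ on the strand of the gene. They were chosen after the motif search and the tests: Sdha and Ndufb4 for repeated NRF1 matches, Sdhd for both motifs, Cox6a1 for a GABP match, and Cox5a and Cox7a1, whose values are described further on, for having neither. The window of Cox6a1 also holds NRF1 matches, farther from the start than the stretch shown. The starts are those of RefSeq. By GENCODE, which gave the gene positions printed further on, the stretches of Sdha, Ndufb4, Cox6a1 and Cox7a1 lie partly inside the gene.
Sdha: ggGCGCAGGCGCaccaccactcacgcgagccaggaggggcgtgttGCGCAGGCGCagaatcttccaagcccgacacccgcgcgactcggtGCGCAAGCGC
Sdhd: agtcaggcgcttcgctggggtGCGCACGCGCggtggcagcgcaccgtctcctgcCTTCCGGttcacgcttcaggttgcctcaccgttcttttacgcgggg
Ndufb4: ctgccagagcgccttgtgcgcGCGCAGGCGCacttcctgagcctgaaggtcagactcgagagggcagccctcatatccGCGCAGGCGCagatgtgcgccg
Cox6a1: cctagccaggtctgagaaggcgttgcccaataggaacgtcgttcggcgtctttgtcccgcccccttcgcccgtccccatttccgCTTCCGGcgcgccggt
Cox5a: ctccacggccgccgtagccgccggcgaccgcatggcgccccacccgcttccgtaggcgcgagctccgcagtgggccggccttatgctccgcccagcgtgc
Cox7a1: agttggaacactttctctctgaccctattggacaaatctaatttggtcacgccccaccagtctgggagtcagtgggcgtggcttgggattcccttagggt
These stretches lie at chr13:74350241-74350340 (minus strand) for Sdha, chr9:50603850-50603949 (minus) for Sdhd, chr16:37654369-37654468 (minus) for Ndufb4, chr5:115348959-115349058 (minus) for Cox6a1, chr9:57521132-57521231 (plus) for Cox5a and chr7:30184071-30184170 (plus) for Cox7a1.

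Of the 66 windows of genes tested in the Ythdc1 set, searched on both strands, 17 (25.8%) held the NRF1 letters, against 5.19% of 27025 genes with such a window. CCGGAAG stood in 24.2% of the 66 and in 9.93% of all genes. AAGATGGCG, the core of the YY1 site, stood in 10.6% against 1.64%, and in the 250 bases before the start alone in 1.52% against 0.71%, so most YY1 matches lay just after the start. The SP1 letters GGGCGG stood in 40.9% and in 38.2% of all genes, and TATAAA stood in 7.58% against 15.7%. The windows were richer in G and C, with a median of 57.7% against 52.7%, and the shares were not matched for this. Among genes lower under 4OHT in the Ythdc1 set 10 of 34 windows held the NRF1 letters, and among those that passed in neither direction 7 of 30 did. These are matches of letters and not measured binding.

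Under DMSO in the Ythdc1 set, levels ranged widely within each complex. Per kilobase of transcript, Cox7c of complex IV stood at 226 CPM, Ndufa7 of complex I at 96.9 CPM, Uqcrc1 of complex III at 90.4 CPM and Sdha of complex II at 37.5 CPM. Atp5b, the catalytic beta subunit of ATP synthase, stood at 407 CPM per kilobase. The lowest of complex II was Sdhc, at 16.3, and the lowest of complex III was Uqcrfs1, at 14.4 CPM per kilobase. 8 of the 88 genes had a mean below 1 CPM. Transcripts are short (231 to 2900 bases, median 694), 61 of them under 1000 bases, and many have pseudogene copies, and no source used here says how reads that map to several places were counted. Values of the smallest subunits are therefore less certain. 25 of the 88 genes share exon bases with an annotated gene on the opposite strand and 5 with 1 on the same strand; whether the counting used strand is not stated either.

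In Ythdc1 cKO cells under 4OHT, many respiratory chain genes were lower than under DMSO and few were higher. Of 82 genes tested, 42 were lower under 4OHT, 2 were higher, and 38 passed in neither direction, by edgeR's quasi-likelihood test with Benjamini-Hochberg adjustment over all 24385 entries tested and a threshold of 0.05. Over all entries, 21.4% were lower and 23.7% higher. The median log2 fold change was -0.29 over the 82 genes and 0.02 over all entries. Every 4OHT library lay below every DMSO library in 45 of the 82 genes and above in 1, against 20.7% and 20.9% of all entries. The share called was higher among well expressed entries. Among genes at 5 CPM or more, 39 of 70 were lower and 1 was higher, against 32.1% and 27.3% of 12470 entries. Without DMSO library 1, which stood apart, 38 genes were lower and 4 higher. The shares over all entries for that run are not given here.

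Summed levels were lower in every complex, least in I and IV. The sum over all 88 genes was 3655 ± 144 CPM under DMSO and 2904 ± 86.9 CPM under 4OHT (mean ± SD, n = 4 each), a difference of 20.5%. It was lower by 28.0% for complex II, 23.8% for complex V, 23.4% for complex III, 15.1% for complex I and 12.6% for complex IV. For no complex did the 4 DMSO and the 4 4OHT libraries overlap. In bulk samples, fewer cells of a type and less RNA per cell cannot be told apart.

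**Figure D1:**
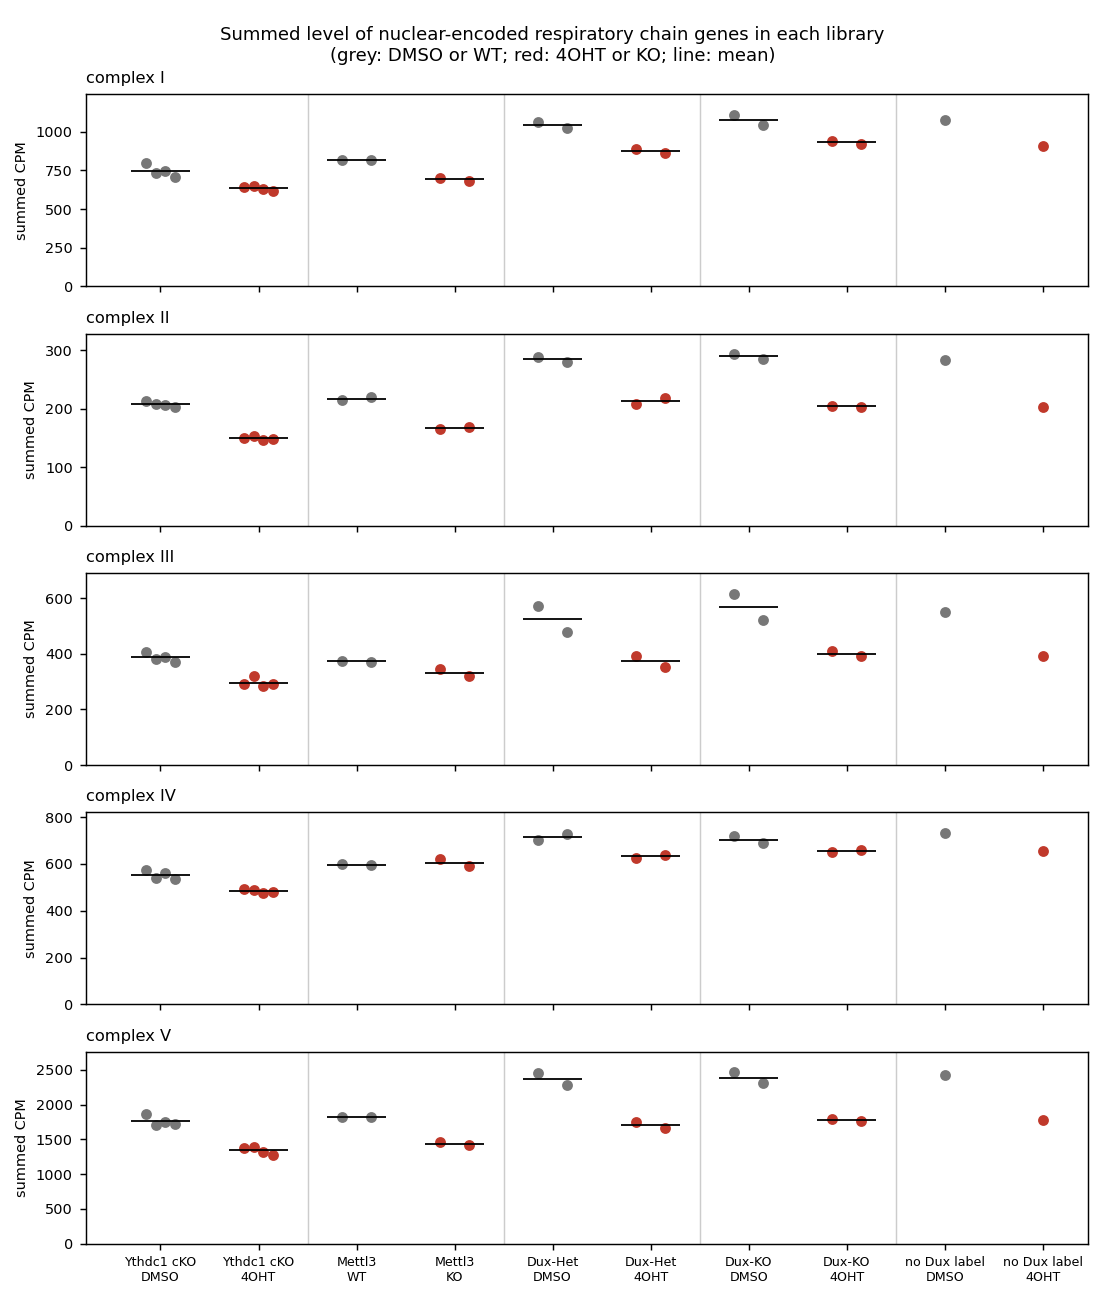
Summed CPM of the members of each complex (vertical axis, from 0) in each of the 22 libraries, by group (horizontal axis). Grey points are DMSO or WT libraries, red points are 4OHT or KO libraries, and lines are group means. Complexes I, II, III and V lay lower in the red group than in the grey group beside it in all 5 pairs of groups, while complex IV overlapped in the Mettl3 set.

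Complex II, succinate dehydrogenase, was lower in all 4 of its genes, with a median log2 fold change of -0.53. Counts by complex in this set are read against 21.4% lower and 23.7% higher of all entries. Among entries at 5 CPM or more these shares were 32.1% and 27.3%. Sdhb (chr4:140961203-140979193, plus strand, GRCm38), the iron-sulfur subunit that hands electrons on towards ubiquinone, was at 32.8, 30.5, 30.02 and 29.9 CPM under DMSO and at 17.9, 17.2, 21.8 and 19.3 CPM under 4OHT (log2 fold change -0.67, SE 0.08, adjusted p = 7.5e-06). All 4 treated libraries lay well below the lowest control library. Sdha (chr13:74322254-74350280, minus strand), the flavoprotein that oxidises succinate, stood at 108, 108, 109 and 110.0 CPM under DMSO and 83.6, 87.96, 80.3 and 83.4 CPM under 4OHT (log2 fold change -0.36, SE 0.05, adjusted p = 5.1e-05). The membrane anchors Sdhc (chr1:171127165-171150603, minus strand) and Sdhd (chr9:50596357-50603812, minus strand) fell by 0.57 and 0.48 on the log2 scale (adjusted p = 5.3e-05 and 2.3e-05). The groups overlapped in none of the 4 genes.

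In complex III, 6 of 9 genes were lower and none was higher, with a median of -0.35. Cyc1 (chr15:76343523-76346260, plus strand), which encodes cytochrome c1, the subunit that passes electrons to cytochrome c, was at 43.5, 41.9, 47.3 and 36.01 CPM under DMSO and at 27.5, 31.1, 27.4 and 24.9 CPM under 4OHT (log2 fold change -0.58, SE 0.09, adjusted p = 5.9e-05). Uqcrfs1 (chr13:30540308-30545362, minus strand), the Rieske iron-sulfur protein, was at 20.2, 18.9, 16.99 and 22.5 CPM and at 14.6, 15.8, 13.6 and 13.6 CPM (log2 fold change -0.42, SE 0.10, adjusted p = 0.0024). Neither gene overlapped between the groups. Uqcrc1 and Uqcrc2, the large core proteins on the matrix side, fell by 0.35 and 0.49 on the log2 scale (adjusted p = 0.0001 and 1.7e-05). Uqcr10, a small subunit, did not pass (-0.16, SE 0.10, adjusted p = 0.18).

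In complex V, 13 of 17 genes were lower and none was higher, with a median of -0.39. Atp5c1 (chr2:10056016-10080510, minus strand), the gamma subunit of the rotating stalk, was at 66.9, 66.5, 62.2 and 59.3 CPM under DMSO and at 43.3, 43.03, 40.7 and 35.3 CPM under 4OHT (log2 fold change -0.63, SE 0.07, adjusted p = 3.9e-06). The highest treated library was below the lowest control by a wide margin. The catalytic subunit gene Atp5b was among the most abundant of all, at 824, 749, 791 and 752 CPM under DMSO and 617, 626, 598 and 574 CPM under 4OHT (adjusted p = 4.9e-05). Atp5a1, its alpha partner, fell by 0.39 on the log2 scale (adjusted p = 1.5e-05). The genes Atp5g1, Atp5g2 and Atp5g3 encode the same mature c subunit of the proton-driven ring, and they fell by 0.55, 0.40 and 0.38 on the log2 scale (adjusted p = 0.00014, 0.00023 and 0.0086). The largest fall in this complex was that of Atp5s, a coupling factor that is no core subunit (log2 fold change -0.77, SE 0.16, adjusted p = 0.0011).

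Complex I moved less as a whole, with 14 of 38 tested genes lower, 1 higher and a median of -0.16. Its share of lower genes was near the 32.1% of all entries at 5 CPM or more. Ndufa7 (chr17:33824572-33838317, plus strand), an accessory subunit, was at 52.6, 50.2, 53.3 and 48.5 CPM under DMSO and at 29.2, 33.5, 34.6 and 27.9 CPM under 4OHT (log2 fold change -0.69, SE 0.08, adjusted p = 2.5e-06). The nuclear-encoded core subunits hold the flavin and the iron-sulfur clusters. Ndufv2 (chr17:66078638-66101559, minus strand), an iron-sulfur subunit of the NADH-oxidising end, was at 53.5, 53.6, 54.2 and 54.2 CPM and at 36.8, 38.4, 34.99 and 33.1 CPM (log2 fold change -0.57, SE 0.07, adjusted p = 3.5e-06). Its partner Ndufv1, which binds the flavin, did not pass (-0.10, SE 0.07, adjusted p = 0.24), with DMSO values of 45.2, 39.5, 39.4 and 41.5 CPM and 4OHT values of 39.2, 37.6, 36.6 and 38.5 CPM, each of them below every DMSO value. Ndufs7 of the ubiquinone-binding part fell by 0.35 on the log2 scale (adjusted p = 0.021) and lost its call without DMSO library 1 or 4OHT library 4. Ndufs1, Ndufs3 and Ndufs8 did not pass, at -0.15, -0.13 and -0.28. The largest fold change of all 82 genes, -1.12 (SE 0.31, adjusted p = 0.0071), was that of Ndufb4c, a processed pseudogene at 1.49, 0.882, 1.51 and 1.11 CPM under DMSO.

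In complex IV 5 of 14 tested genes were lower and 1 was higher, with a median of -0.16. Here, too, the share of lower genes was near the 32.1% of all entries at 5 CPM or more. Cox5a (chr9:57521274-57532426, plus strand), a subunit on the matrix side, was at 25.5, 24.6, 28.2 and 23.5 CPM under DMSO and at 16.96, 16.9, 18.1 and 14.6 CPM under 4OHT (log2 fold change -0.59, SE 0.09, adjusted p = 5.5e-05). Cox4i1 (chr8:120668222-120674207, plus strand), the widely expressed isoform of subunit 4, was at 121, 100.1, 106 and 101 CPM and at 112, 111, 101 and 111 CPM (log2 fold change 0.04, SE 0.07, adjusted p = 0.62). The Cox5a groups did not overlap, and the Cox4i1 groups lay across each other.

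The clearest rise was in Cox7a1 (chr7:30184144-30186078, plus strand), an isoform known from heart and skeletal muscle. It was at 2.05, 2.16, 2.22 and 1.51 CPM under DMSO and at 3.14, 3.35, 4.16 and 2.39 CPM under 4OHT (log2 fold change 0.74, SE 0.20, adjusted p = 0.0074), and every treated library lay above every control library. By the same test the rise was not seen in the Dux set, at 0.21 in Dux-Het and -0.11 in Dux-KO (adjusted p = 0.69 and 0.85). A summed list of 7 muscle genes ran from 24.0 to 40.0 CPM under DMSO and from 36.9 to 90.5 CPM under 4OHT, and their part in the Cox7a1 value was not tested. Ndufa13, also known as GRIM-19, rose by 0.28 (SE 0.11, adjusted p = 0.0496), at the edge of the threshold, and lost its call under DESeq2, under other scalings and when any 1 of 7 of the 8 libraries was left out. Of the other isoforms known from single tissues, Cox4i2 and Cox6b2 did not pass (0.52 and -0.16, adjusted p = 0.18 and 0.29). Cox6b2, known from testis, was well detected at 17.5, 21.02, 24.5 and 22.7 CPM under DMSO. Cox6a2, Cox7b2, Cox8b and Cox8c were too low to test in this set, as were the pseudogenes Ndufa11b and Cox6c2.

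**Figure D2:**
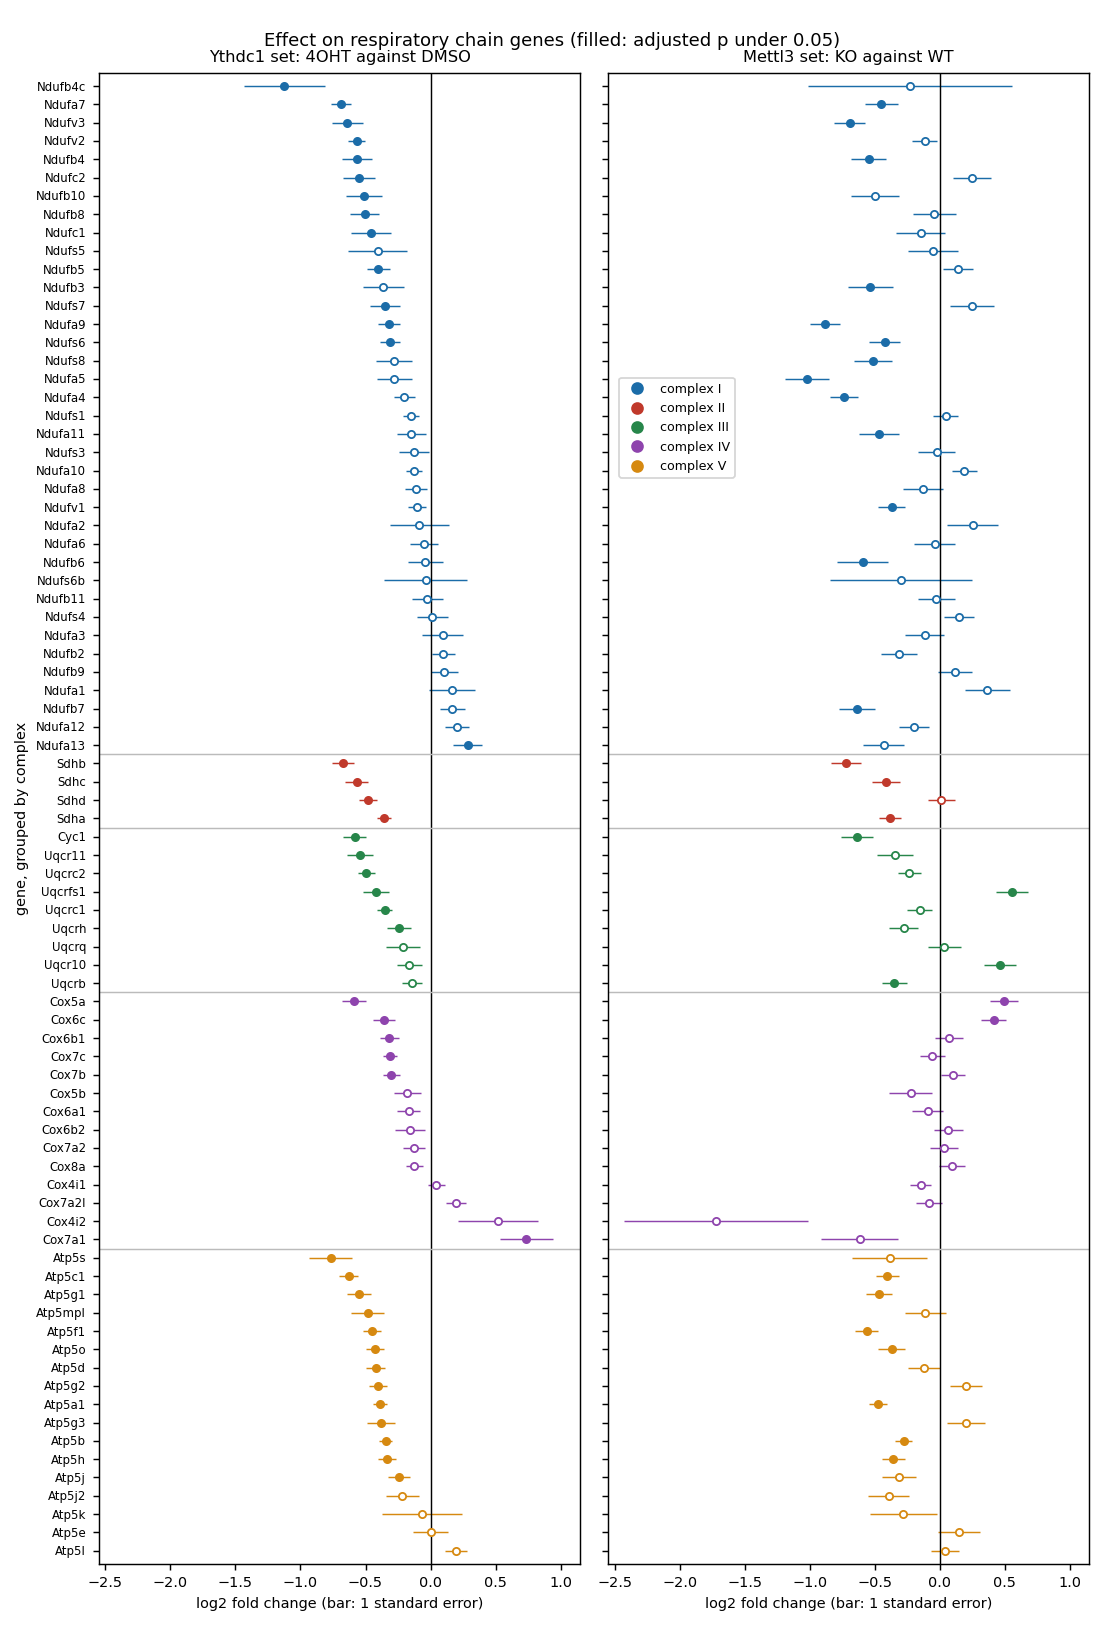
Log2 fold change (horizontal axis, bars 1 SE) of the respiratory chain genes tested in the Ythdc1 set, save 1 that is not shown, grouped by complex and ordered by their value there, in the Ythdc1 set (left) and the Mettl3 set (right). Filled points passed an adjusted p of 0.05. In the left panel all but 2 of the filled points lie below 0, and in the right panel Cox5a, Uqcrfs1, Cox6c and Uqcr10 are filled above 0.

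Libraries with the same column number deviated together in the Ythdc1 set, least clearly for number 2, so the fit was repeated with that number as a replicate block. With the block, 44 of these genes were lower and 5 higher. The shares over all entries for that fit are not given here. Ndufa4 and Ndufs1 were then also lower (adjusted p = 0.021 and 0.037 with the block), and Atp5l, Cox7a2l and Ndufa12 were also higher, by 0.19, 0.19 and 0.20 on the log2 scale.

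Genes that work with the chain were described from lists, again read against the 21.4% lower and 23.7% higher of all entries. Among entries at 5 CPM or more these shares were 32.1% and 27.3%, and the lists were not matched for level. Of 13 enzymes of the TCA cycle outside complex II, 12 were lower and none higher (median -0.30), led by Fh1, fumarase, at -0.67 and Idh3a, the catalytic subunit of the NAD-dependent isocitrate dehydrogenase, at -0.63. Of 50 assembly factors, which build the complexes but are no part of them, 14 were lower and 3 higher (median -0.13). Ndufaf6 and Ndufaf5, for complex I, were at -0.92 and -0.71, and Coa7 and Sco2, for complex IV, were higher at 0.86 and 0.64. Among 11 genes for cytochrome c and ubiquinone synthesis, 1 was higher (Pdss2, 0.45) and 1 lower (Coq2, -0.23). Of 12 known regulators of respiratory genes, Ppargc1b and Pprc1, both coactivators of the PGC-1 family, were lower at -0.66 and -0.44, and Myc was higher at 1.00. Of 78 mitochondrial ribosomal protein genes, 36 were lower and 3 higher (median -0.19), and of 89 cytosolic ribosomal protein genes, 39 were lower and 7 higher (median -0.13).

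The 13 subunits encoded by mitochondrial DNA were mixed in direction. 3 were higher and 2 lower, with a median of -0.00. mt-Nd1 and mt-Nd4l of complex I were higher, at 0.44 and 0.31, and mt-Co1 of complex IV and mt-Nd6 of complex I were lower, at -0.58 and -0.39. Their summed level was nevertheless 19.4% lower under 4OHT with no overlap between the groups.

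**Figure D3:**
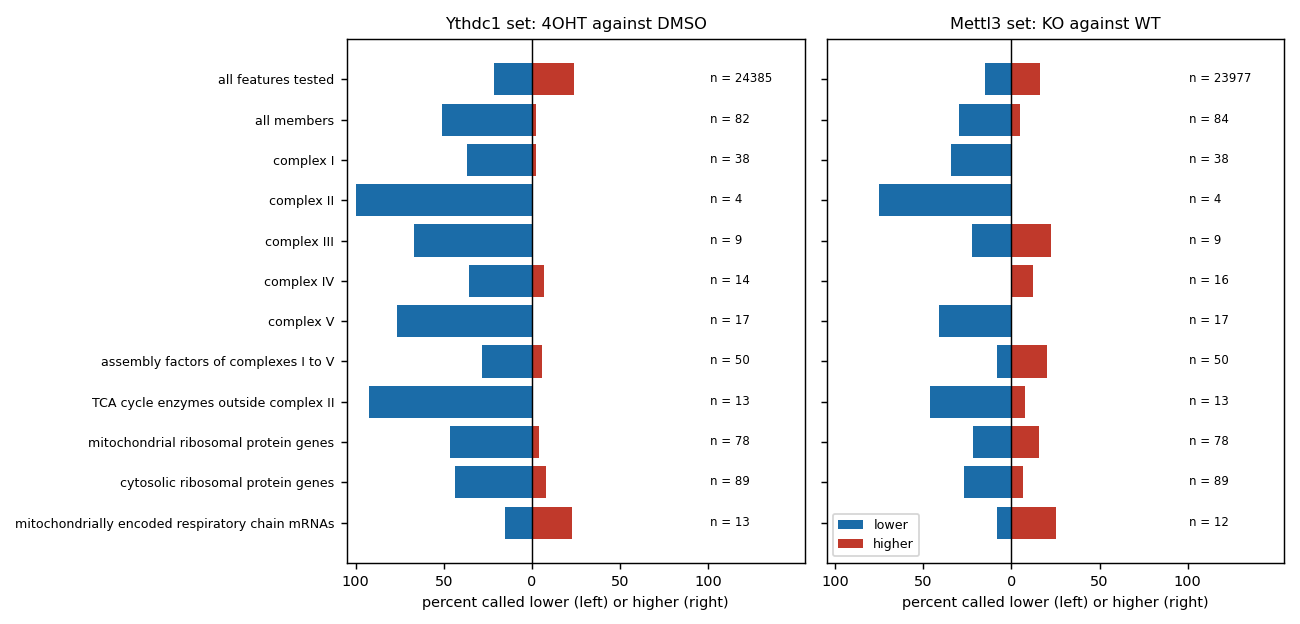
Percent of the tested genes of each list called lower (bars to the left of 0) or higher (bars to the right) in the Ythdc1 set and the Mettl3 set, with the percent over all entries tested in the top row. In the Ythdc1 set complexes II, III and V and the TCA cycle enzymes reach furthest to the left.

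Other features of these libraries moved with the treatment. The summed level of 6 two-cell-like genes was 4.41 to 18.5 CPM under DMSO and 54.5 to 110.8 CPM under 4OHT, and no library overlapped. That of 6 fibroblast genes was 38.1 to 67.1 CPM and 93.0 to 166 CPM, and of these genes Acta2 was higher (1.60), Thy1 was lower (-1.34) and 4 did not pass. That of 6 primitive endoderm genes was 9.65 to 13.3 CPM under DMSO and 14.8 to 22.4 CPM under 4OHT, also without overlap, and 5 of the 6 were higher, led by Foxa2 (2.02). The sums of 5 trophectoderm genes, 288 to 476 CPM and 248 to 543 CPM, overlapped. Repeat families took 21.3% to 23.8% of counts under DMSO and 26.9% to 28.4% under 4OHT. With repeats left out of the table, 41 respiratory chain genes were lower and 3 higher, with a median of -0.28. Over all gene entries the median was 0.0058, and 51.2% of the entries called were higher. The part of these marker genes in the result was not tested.

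In the Mettl3 set, too, more genes of the chain were lower than higher. Of 84 genes tested, 25 were lower in KO and 4 higher, against 14.9% lower and 16.4% higher of 23977 entries, and the median was -0.15 against 0.02. 13 of the lower genes belong to complex I, 3 to complex II, 2 to complex III and 7 to complex V. By symbol none belongs to complex IV, where 2 genes were higher. Ndufa4, counted here with complex I though now known as a subunit of complex IV, was among the lower genes. At an unadjusted p under 0.05, 34 were lower and 4 higher, against 19.8% and 21.7% of all entries. Most or all calls were lost when either WT library was left out, but not when either KO library was. The WT libraries differed less from each other than the KO libraries did (chi-square per degree of freedom 3.741 and 15.22). Calls over all entries also varied widely between alternative runs, so these moves are not particular to the respiratory chain genes. With a library left out, an arm holds 1 library, which is assumed to vary like the other arm. The 6 two-cell-like genes summed to 0.702 to 0.966 CPM in WT and 70.6 to 73.2 CPM in KO, and the 6 fibroblast genes to 81.1 to 83.1 CPM and 30.7 to 64.3 CPM. The 6 primitive endoderm genes summed to 6.22 to 6.45 CPM in WT and 6.95 to 7.72 CPM in KO, with Foxa2 alone called higher (3.72). The part of these genes in the result was not tested.

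Among the genes called, the largest falls in the Mettl3 set were in genes counted with complex I. Cox4i2, at a low level, had a larger fold change that did not pass (-1.72, adjusted p = 0.096). Ndufa5 was at 13.2 and 10.8 CPM in WT and 6.03 and 5.66 CPM in KO (log2 fold change -1.02, SE 0.17, adjusted p = 0.002). Ndufa9, which lies near the ubiquinone site, was at 36.7 and 35.1 CPM and 20.2 and 18.3 CPM (log2 fold change -0.88, SE 0.11, adjusted p = 0.00047). Ndufa4 was at 42.7 and 43.4 CPM and 27.01 and 24.1 CPM (log2 fold change -0.74, SE 0.11, adjusted p = 0.0011). In each of these genes both KO libraries lay below both WT libraries, which adds little to the call with 2 libraries a group. Sdhb was at 35.6 and 32.5 CPM in WT and 19.9 and 20.9 CPM in KO (adjusted p = 0.0013), and Cyc1 was at 35.05 and 38.4 CPM and 25.5 and 21.3 CPM (adjusted p = 0.0045).

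4 genes were higher in Mettl3 KO, and 3 of them had been lower under 4OHT in the Ythdc1 set. Uqcrfs1 was at 20.1 and 18.5 CPM in WT and 29.9 and 26.00 CPM in KO (log2 fold change 0.55, SE 0.12, adjusted p = 0.0081). Cox5a was at 21.99 and 23.2 CPM in WT and 30.98 and 31.9 CPM in KO (log2 fold change 0.49, SE 0.11, adjusted p = 0.008). Cox6c, a small membrane subunit of complex IV, was at 51.4 and 52.6 CPM and 65.04 and 72.00 CPM (adjusted p = 0.01). The fourth, Uqcr10, was at 22.2 and 19.98 CPM and 30.98 and 26.6 CPM (adjusted p = 0.02). KO and WT did not overlap in any of the 4, but groups of 2 libraries often separate by chance, so this adds little to the call. Each of the 4 lost its call without WT library 1 and without WT library 2.

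Summed by complex, Mettl3 KO was lower by 23.2% in complex II, 21.2% in complex V, 15.3% in complex I and 11.2% in complex III. The complex IV sum, which leaves out Ndufa4 by its symbol, was 594 to 598 CPM in WT and 593 to 620.1 CPM in KO, and these overlapped. Partner genes were again read against the 14.9% lower and 16.4% higher of all entries. Of 50 assembly factors, 4 were lower and 10 were higher, the latter a share near that of all entries. Among the higher ones were Ndufaf1, an early complex I assembly factor, at 1.70, Tmem70, for ATP synthase, at 1.21, and Atpaf1, also for ATP synthase, at 1.08. Cycs, cytochrome c, and Coq9, for ubiquinone synthesis, were lower at -1.35 and -1.15. Of 13 TCA cycle enzymes 6 (46.2%) were lower, led by Suclg1 at -1.06, and Ogdh was higher at 0.59. Ppargc1b was higher at 1.40 and Myc lower at -0.93, each with the opposite sign to its value in the Ythdc1 set. Of 12 tested mitochondrially encoded subunits 3 were higher and 1 lower.

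The Ythdc1 and the Mettl3 set share no library, so their effects were compared in a joint fit of 12 libraries. 16 genes were lower in both, which is 16 of the 42 lower in the Ythdc1 set and 16 of the 25 lower in the Mettl3 set: Ndufa7, Ndufa9, Ndufb4, Ndufs6, Ndufv3, Sdha, Sdhb, Sdhc, Cyc1, Atp5a1, Atp5b, Atp5c1, Atp5f1, Atp5g1, Atp5h and Atp5o. These are 38.1% and 64.00% of the respective genes, and over all entries the shares lower in both were 30.6% of those lower in the Ythdc1 set and 44.9% of those lower in the Mettl3 set. The Ythdc1 effect minus the Mettl3 effect was called above 0 in 9 of 84 genes and below 0 in 10, at an adjusted p under 0.05. Over all 28260 entries these shares were 13.7% and 11.6%, so these genes differed between the sets about as often as other entries did. Among the differences called, those below 0 were led by Cox5a (-1.04, SE 0.15, adjusted p = 3.7e-05) and Uqcrfs1 (-0.93, SE 0.17, adjusted p = 0.00039). Sdhd also differed (-0.45, adjusted p = 0.0063): in the Mettl3 set it was at 33.7 and 35.1 CPM in WT and 34.1 and 34.4 CPM in KO. Those above 0 were led by Cox4i2 (2.28, adjusted p = 0.023), which was near 1 CPM or below in the Mettl3 set, Cox7a1 (1.40, adjusted p = 0.0087) and Ndufb7 (0.85, adjusted p = 0.0008). For Cox4i2 the call was lost without WT library 2 or KO library 1, and for Cox7a1 without WT library 1. The 2 sets may also differ in strain history, batch and treatment, which cannot be told apart from the gene deleted.

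**Figure D4:**
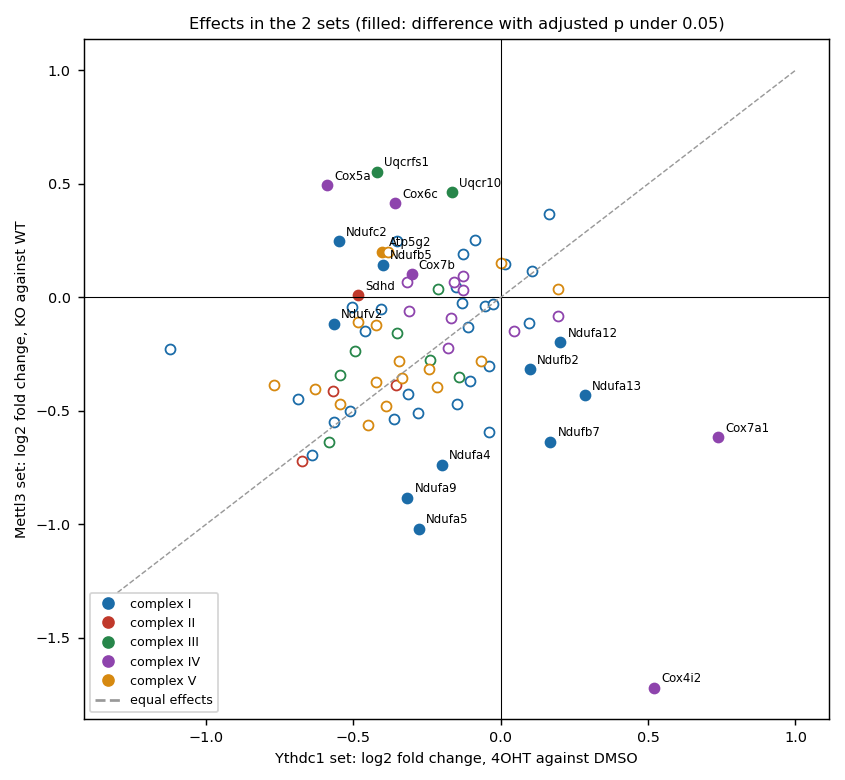
Log2 fold change of the respiratory chain genes, save 1 that is not shown, in the Ythdc1 set (horizontal axis) and the Mettl3 set (vertical axis), coloured by complex, with a dashed line where the effects are equal. Filled, named points are the 19 genes whose difference passed an adjusted p of 0.05. Cox5a, Uqcrfs1 and Cox6c lie at the upper left, and the 3 Sdh genes that fell in both sets are red points at the lower left.

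The Dux set compares the response to 4OHT in Ythdc1 cKO cells with and without a working Dux. In Dux-Het cells 5 of 86 genes were lower under 4OHT and none was higher, against 4.34% lower and 4.99% higher of 29322 entries (median -0.31 against 0.04). In Dux-KO cells 7 were lower and none higher, against 4.36% and 5.5% (median -0.20). At an unadjusted p under 0.05, 31 were lower and 3 higher in Dux-Het, against 11.9% and 13.3% of all entries, and 22 were lower and 1 higher in Dux-KO, against 11.7% and 14.9%. With 2 libraries a group these counts are sensitive to single libraries. Without Dux-Het 4OHT library 1 no gene was called in Dux-Het, and without DMSO library 1 or 4OHT library 2, 1 was. In Dux-KO no gene was lower without DMSO library 1, 4OHT library 1 or 4OHT library 2.

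Cyc1, Atp5c1 and Atp5g3 were lower in both Dux genotypes. Cyc1 was at 95.2 and 67.5 CPM under DMSO and 49.98 and 47.7 CPM under 4OHT in Dux-Het (log2 fold change -0.72, SE 0.20, adjusted p = 0.0471), and at 107 and 77.6 CPM and 49.5 and 56.9 CPM in Dux-KO (log2 fold change -0.75, SE 0.20, adjusted p = 0.039). Atp5c1 was at 79.5 and 83.97 CPM and 50.3 and 54.00 CPM in Dux-Het, and at 74.1 and 82.6 CPM and 52.5 and 49.7 CPM in Dux-KO (adjusted p = 0.017 and 0.026). The treated libraries of both genes lay below the controls in both genotypes, which adds little to the calls with 2 libraries a group. Atp5g3 (chr2:73908447-73911326, minus strand) had the largest fall of the genes called in each, 0.92 and 0.77 on the log2 scale (adjusted p = 0.014 and 0.03). Sdhb was at 51.8 and 44.9 CPM and 34.1 and 33.2 CPM in Dux-Het, which missed the threshold (adjusted p = 0.0536), and at 47.8 and 54.02 CPM and 33.7 and 32.6 CPM in Dux-KO (adjusted p = 0.033). The other lower genes were Atp5o and Uqcrc2 in Dux-Het (-0.55 and -0.47), and Sdhc, Sdhd and Uqcrc1 in Dux-KO (-0.54, -0.75 and -0.65).

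The Dux genotypes were not shown to differ in their response. Of the 86 genes none passed for the Dux-KO effect minus the Dux-Het effect in edgeR's quasi-likelihood test or in DESeq2. The edgeR test called 0 of 29322 entries in either direction, so the lack of calls is not particular to these genes. None of the 86 had an unadjusted p under 0.05. The smallest unadjusted p was 0.103, and 481 of 29322 entries were under 0.05. The difference was -0.04 (SE 0.28) for Cyc1, 0.06 (SE 0.19) for Atp5c1 and -0.07 (SE 0.21) for Sdhb, on the log2 scale. Standard errors of this size leave room for a difference in either direction. Under DMSO alone, Dux-KO and Dux-Het also gave no call among these genes, against 0.0341% lower of all entries (smallest unadjusted p 0.157, and none by DESeq2).

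A mean of the Dux-Het and Dux-KO effects, added after the data were seen, gave 25 lower and 3 higher, against 11.8% and 13.7% of entries. 8 of the lower genes belong to complex I, 4 to complex II, 4 to complex III, 2 to complex IV and 7 to complex V, and the higher ones were Ndufa12 (0.68), Ndufa3 (0.41) and Cox7a2l (0.35). All 4 Sdh genes were lower, with Sdhb at -0.54 (SE 0.10, adjusted p = 0.0036). The TCA cycle enzymes were lower in 7 of 13. Without Dux-KO 4OHT library 2, 11 genes were lower and none higher, and without Dux-KO 4OHT library 1, 16 and none.

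In the Dux set, too, the sums of complexes II, III and V were lower by more than those of complexes I and IV. Complexes II, III and V were lower by 25.3%, 29.1% and 28.0% in Dux-Het and by 29.6%, 29.7% and 25.6% in Dux-KO. Complexes I and IV were lower by 16.1% and 11.3% in Dux-Het and by 13.4% and 6.9% in Dux-KO. The 6 two-cell-like genes summed to 38.4 to 46.6 CPM under 4OHT in Dux-Het and to 0.0596 to 0.0902 CPM in Dux-KO, where Zscan4c, Zscan4d, Zfp352 and Usp17la were at 0 in both 4OHT libraries. The sum of all 88 genes was lower by 23.0% in Dux-Het and by 21.1% in Dux-KO, where these two-cell-like markers were near 0. Other marker sums also moved. Under DMSO and 4OHT, the 8 ESC markers summed to 1837 to 1987 CPM and 1187 to 1791 CPM in Dux-Het, and to 1694 to 2089 CPM and 1190 to 1360 CPM in Dux-KO. The 6 primitive endoderm genes summed to 5.65 to 6.56 CPM and 9.38 to 12.3 CPM in Dux-Het, and to 6.25 to 6.82 CPM and 10.8 to 13.1 CPM in Dux-KO. The 5 trophectoderm genes summed to 52.9 to 118 CPM and 44.7 to 49.5 CPM in Dux-Het, and to 103 to 147 CPM and 46.7 to 49.9 CPM in Dux-KO. None of these sums overlapped between the treatments. The 6 fibroblast genes overlapped in Dux-Het, at 23.8 to 79.95 CPM and 48.7 to 61.6 CPM, and not in Dux-KO, at 74.6 to 86.6 CPM and 39.9 to 44.1 CPM. The part of these markers in the result was not tested. The mitochondrially encoded sum was 13.6% and 35.8% higher under 4OHT, with overlap between the treatments in both. In the pair with no Dux label, which has no replicate and no test, the ratio used CPM plus a pseudocount of 0.5. 43 of 86 genes were at least 1.2-fold lower and 4 at least 1.2-fold higher, against 24.4% and 29.2% of entries, with a median log2 ratio of -0.26.

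Levels themselves differed between sets. The sum over the 88 genes was 3538 to 3856 CPM in the Ythdc1 DMSO libraries and 4790 to 5087 CPM in the Dux-Het DMSO libraries. The sets cannot be told apart from the batches in which they may have been made, so no level was compared across them by a test.

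**Figure D5:**
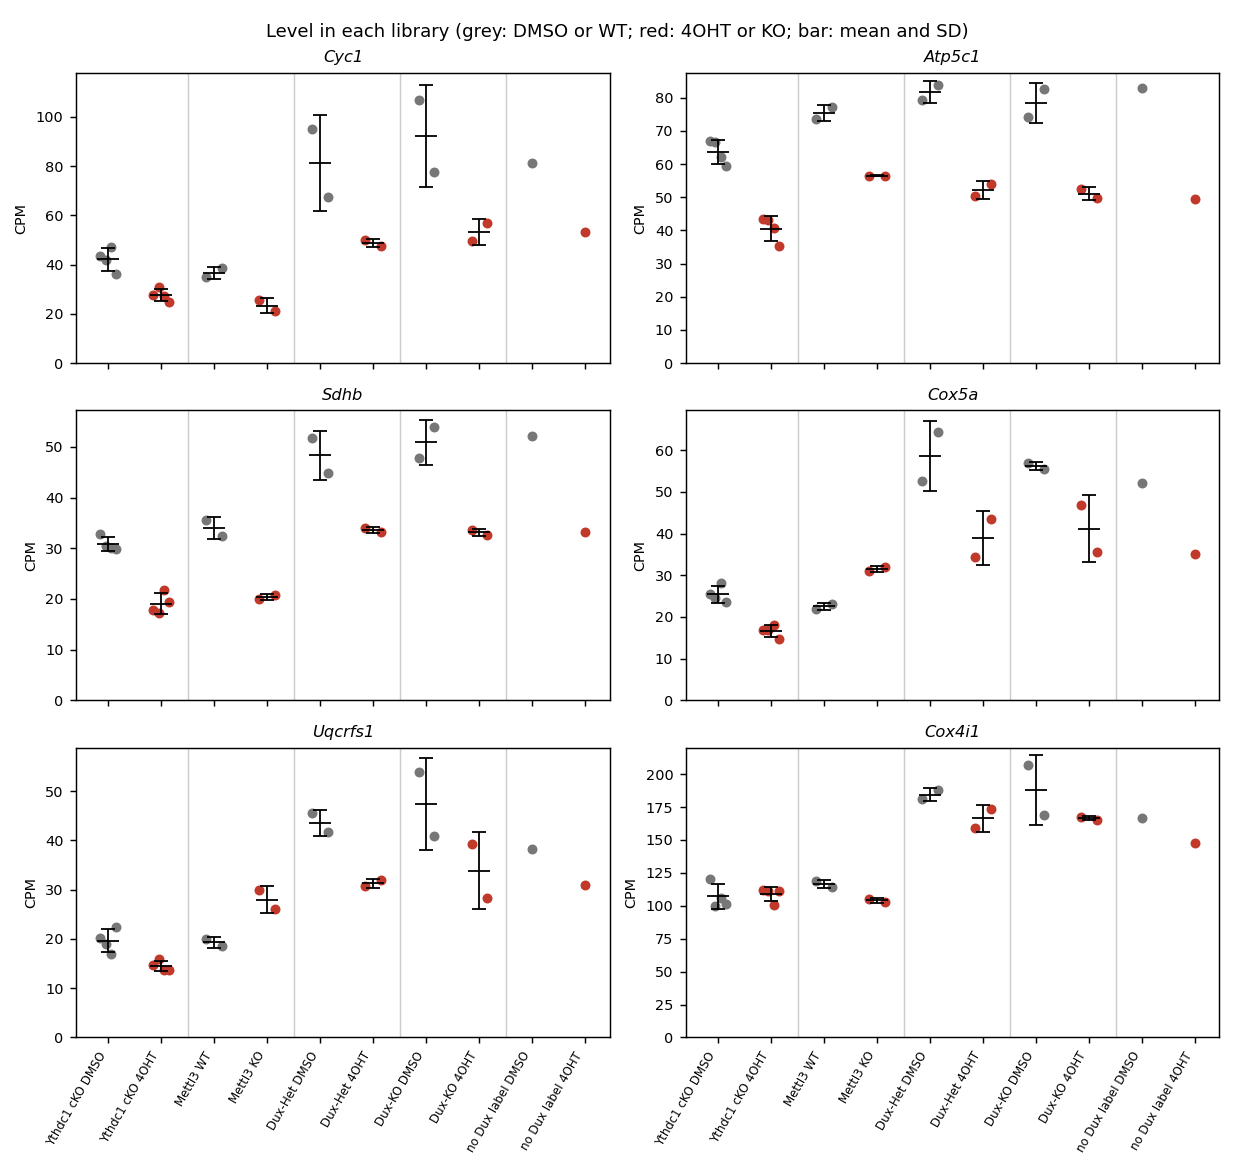
CPM of 6 respiratory chain genes (vertical axes, from 0) in each library by group (horizontal axis). Grey points are DMSO or WT libraries, red points are 4OHT or KO libraries, and bars are mean and SD. Cyc1, Atp5c1 and Sdhb are lower in every red group than in the grey group beside it, Cox5a and Uqcrfs1 are higher in Mettl3 KO alone, and Cox4i1 overlaps in the Ythdc1 set.

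Across the 4 replicated comparisons, Cyc1 and Atp5c1 were called lower in all 4, and Sdhb, Sdhc, Atp5g3 and Atp5o in 3. The share of all entries with such repeated calls is not given here, so these counts have nothing to be read against. Of the 82 genes tested in all 4, 39 (47.6%) had a negative log2 fold change in each, called or not, against 20.2% of 22478 entries. Ndufa1 and Ndufb9, accessory subunits of complex I, were positive in all 4, and neither passed in any (0.16, 0.37, 0.35 and 0.42 for Ndufa1). Ndufb9 shares 19.5% of its exon bases with another gene on the same strand.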

How the data were processed

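RNA-seq was measured in 22 libraries of mouse ESCs. Total RNA was freed of ribosomal RNA with RNase H, made into strand-marked libraries and sequenced paired-end, per the labels' protocols. The authors deposited raw counts per gene or repeat family, which gave all results, and a normalized signal table, deposited with 1 factor per library, which served as an alternative scaling. Tools named in the submitters' processing notes are STAR 2.7, RSEM, Bowtie2 and bcl2fastq, with the build mm10. Which tool counted, whether by strand, and how reads with several positions were treated is not given in the sources used. No column was left unmapped (0). Groups came from titles, since in the Dux set the genotype and treatment fields disagree with titles by a shift of 1 sample.

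Counts were fitted per set with edgeR 4.0.16 in R 4.3.3 (filterByExpr, TMM, glmQLFit, glmQLFTest), with Benjamini-Hochberg adjustment over all entries. The 10 Dux libraries shared 1 spread. DESeq2 1.42.0, other scalings, no filter, gene entries alone, a replicate block and leaving out each library were alternatives. Each SE is the size of the log2 fold change divided by the root of its F statistic. The code was tested on simulated data. Tables and figures used Python 3.11.15, pandas 2.3.3 and matplotlib 3.10.9. Gene positions are from GENCODE vM21 (GRCm38).

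Same-numbered libraries of the Ythdc1 set deviated together (correlations 0.306, 0.104, 0.323 and 0.364 over 10247 entries at 5 CPM or more). By the data the column numbers pair libraries 1, 3 and 4. For number 2 this is unclear, since 4OHT library 2 correlated at 0.130 with DMSO library 1. No source used here says what a number marks.

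Members, gene lists and tests were chosen with earlier results of these data known. Named are up to 6 members called in each direction in each comparison with the largest changes, up to 5 for each difference, central subunits, tissue-restricted isoforms and c-subunit genes; 1 member is counted in all totals but not reported singly here. Ndufs6, Ndufb4, Atp5f1, Atp5h, Ndufa3, Cox7a2l, Ndufa12, Ndufa1 and Ndufb9 were named after their values were seen. The mean Dux effect and the limit to entries at 5 CPM or more were added after seeing the data.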

Additional observations from a re-analysis of the deposited data

Results flagged for a closer look

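Within groups of 4 libraries, 6 of 102 checked cases (a gene or a complex sum in 1 group) held a library far from the other 3, where chance gives about 1 in 20. In the Ythdc1 set, Ndufc2 was at 9.47 CPM in DMSO library 1 against 10.9 to 11.0 CPM in the others, and Atp5g1 at 39.8 CPM in the same library against 30.1 to 31.1 CPM. Ndufs3 was at 10.6 CPM in 4OHT library 1 against 13.5 to 13.6 CPM. In 4OHT library 3, Cox4i1 was at 100.6 CPM against 111 to 112 CPM, Cox6b2 at 23.1 CPM against 17.4 to 17.6 CPM, and Cox7c at 92.3 CPM against 98.4 to 98.9 CPM.

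The Ythdc1 effect and the Mettl3 effect differed, by the test of the difference itself in edgeR's quasi-likelihood fit, in 19 respiratory chain genes. The difference was below 0 in Cox5a (-1.04), Uqcrfs1 (-0.93), Ndufc2 (-0.75), Cox6c (-0.73), Uqcr10 (-0.59), Atp5g2 (-0.56), Ndufb5 (-0.50), Sdhd (-0.45), Ndufv2 (-0.41) and Cox7b (-0.36). It was above 0 in Ndufa12 (0.44), Ndufb2 (0.46), Ndufa4 (0.58), Ndufa9 (0.61), Ndufa13 (0.76), Ndufa5 (0.78), Ndufb7 (0.85), Cox7a1 (1.40) and Cox4i2 (2.28). Adjusted p-values ran from 3.7e-05 for Cox5a to 0.0457 for Ndufa12. In Ndufa9 both effects were negative and called, and the Mettl3 effect was the larger.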

How the results depend on the processing

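In the Ythdc1 set the 42 lower genes came to 38 to 44 under every alternative run, and the 2 higher to 1 under DESeq2, under DESeq2's or the authors' factors and without the filter, to 5 with the replicate block, and to 1 to 4 with a library left out. In the Mettl3 set the 4 higher and 25 lower ranged over 0 to 6 and 0 to 36, and calls over all entries (7492) over 351 to 9716. In Dux-Het, 0 higher became 1 without the filter and 2 with the block, and 5 lower became 12 (DESeq2), 8 (no filter), 3 (gene entries alone), 28 (block), 1 (its own 4 libraries) and 0 to 5 with a library left out; all calls, 2738, became 4319 (no filter), 6098 (block), 1032 (own libraries) and 1254 to 2093. In Dux-KO, 0 higher became 1 without the filter, 1 with the block and 0 to 1, and 7 lower became 13 (DESeq2), 11 (no filter), 19 (block), 12 (own libraries) and 0 to 9; all calls, 2890, became 4701, 6801, 4914 and 423 to 2427. For the mean Dux effect, 3 higher and 25 lower became 5 and 39 with the block, and 0 to 4 and 11 to 31 with a library left out, and all calls, 7462, ranged over 3892 to 7525. Calls over all entries for the Dux-KO effect minus the Dux-Het effect, 0, became 2 (DESeq2), 28 (no filter), 5 (block) and 0 to 1, and those for the genotypes under DMSO, 10, became 17, 124, 69 and 0 to 15, with no respiratory chain gene among them under any alternative. For the Ythdc1 minus the Mettl3 effect, 9 higher ranged over 4 to 10 with a library left out. The cause of these moves was not tested. In the Ythdc1 set the numbers pair libraries 1, 3 and 4 by the data. With 2 libraries a group the other pairing has the same correlation with the opposite sign. Elsewhere same-numbered libraries correlated at 0.0595 (Mettl3), 0.533 (Dux-Het) and 0.229 (Dux-KO), share only a number, and the block is given as a count. Of single-gene values, 954 kept direction and call, 98 lost the call, 7 gained it and none reversed. Searched before the start alone, the NRF1 share was 19.7%, the GABP share 18.2% and the YY1 share 1.52%.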
